A study of Caenorhabditis elegans with 4 samples.

Results

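The genes examined here encode the proteins of the large (60S) subunit of the cytosolic ribosome of Caenorhabditis elegans. They were chosen by symbol: protein-coding genes named rpl with a number, plus rla-0, rla-1 and rla-2, which gave 50 of the 19973 protein-coding genes on the 6 nuclear chromosomes. The data were chromatin immunoprecipitation and sequencing (ChIP-seq) peak lists for UNC-62, 1 group with 4 biological replicates. Every library came from whole animals at the L3 larval stage, of mixed sex, from strain OP600, a background with the unc-119 mutation ed3 that carries the integrated array wgIs600, in which unc-62 is fused to TY1, EGFP and FLAG tags beside an unc-119 rescue gene. The tagged protein is thus an added copy, and no untagged or unc-62 mutant animals were among the samples, so the regions at these genes cannot be set against a strain without the tag. Whole larvae also merge all cell types, so a region cannot be placed in a tissue.

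The large subunit holds the peptidyl transferase centre, where peptide bonds are made, and the tunnel through which the new chain leaves. Growing larvae need its proteins in near-equal amounts in every cell, and in animals their genes are among the most strongly transcribed by RNA polymerase II. UNC-62 is a TALE-class homeodomain protein of the Homothorax and MEIS family, best known for acting with PBX-type and Hox partners on developmental genes. RefSeq gives 49 of the 50 genes a ribosomal product name or, for rpl-24.2, that of a ribosome biogenesis protein. The exception was rpl-42, named as a NAM-associated domain protein; it stayed in the count because the rule is by symbol.

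A gene was scored when a summit, the highest point of a listed region, fell in a window reaching from 1000 bp before to 200 bp after any of its transcript starts. Of the 50 genes, 14 had a summit of the optimal list, 1037 peaks kept by the authors' reproducibility threshold. This is 28% (exact 95% interval 16.2 to 42.5%, counting error only) beside 2.63% of all protein-coding genes. In order of falling signal these were rpl-3, rpl-35, rpl-15, rpl-20, rpl-12, rpl-11.2, rpl-22, rpl-1, rpl-14, rpl-25.2, rpl-7A, rpl-5, rpl-24.2 and rpl-21. The peak of highest signal in the whole optimal list lay at rpl-3.

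Sequence at the strongest of these summits is shown first, because several of the windows share letters. Each line holds the 101 bases centred on the optimal summit, read 5′ to 3′ on the gene's strand, from the RefSeq genome of build WBcel235 (ce11). Capitals mark the strings CGAGTGT and ACCGTAG on either strand; on the opposite strand the latter reads CTACGGT. Both strings were picked from these very windows after they had been read, so their number here supports nothing by itself. The windows of rpl-3, rpl-15, rpl-11.2 and rpl-22 hold both strings, that of rpl-20 holds 1 of them, and those of rpl-35 and rpl-12, also among the 6 strongest, hold neither.
rpl-3 (III:3867522-3867622, + strand): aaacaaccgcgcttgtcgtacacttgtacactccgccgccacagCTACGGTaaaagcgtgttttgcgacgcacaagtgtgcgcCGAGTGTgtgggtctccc
rpl-15 (IV:654873-654973, − strand): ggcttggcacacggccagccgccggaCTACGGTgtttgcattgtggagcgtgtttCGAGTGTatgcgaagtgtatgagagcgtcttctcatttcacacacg
rpl-11.2 (X:2242938-2243038, − strand): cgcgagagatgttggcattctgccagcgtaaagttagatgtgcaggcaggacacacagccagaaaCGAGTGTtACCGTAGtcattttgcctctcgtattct
rpl-22 (II:5055319-5055419, + strand): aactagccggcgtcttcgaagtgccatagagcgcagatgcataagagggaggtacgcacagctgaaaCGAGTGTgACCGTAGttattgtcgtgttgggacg
rpl-20 (IV:4750020-4750120, − strand): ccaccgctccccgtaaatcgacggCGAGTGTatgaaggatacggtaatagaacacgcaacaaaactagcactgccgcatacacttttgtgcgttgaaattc
rpl-35 (III:7854634-7854734, + strand): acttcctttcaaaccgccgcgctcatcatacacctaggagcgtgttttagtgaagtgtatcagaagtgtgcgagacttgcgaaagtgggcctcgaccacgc
rpl-12 (IV:13240626-13240726, − strand): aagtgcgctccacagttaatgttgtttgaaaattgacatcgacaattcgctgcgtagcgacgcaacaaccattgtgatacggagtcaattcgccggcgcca

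**Figure D1:**
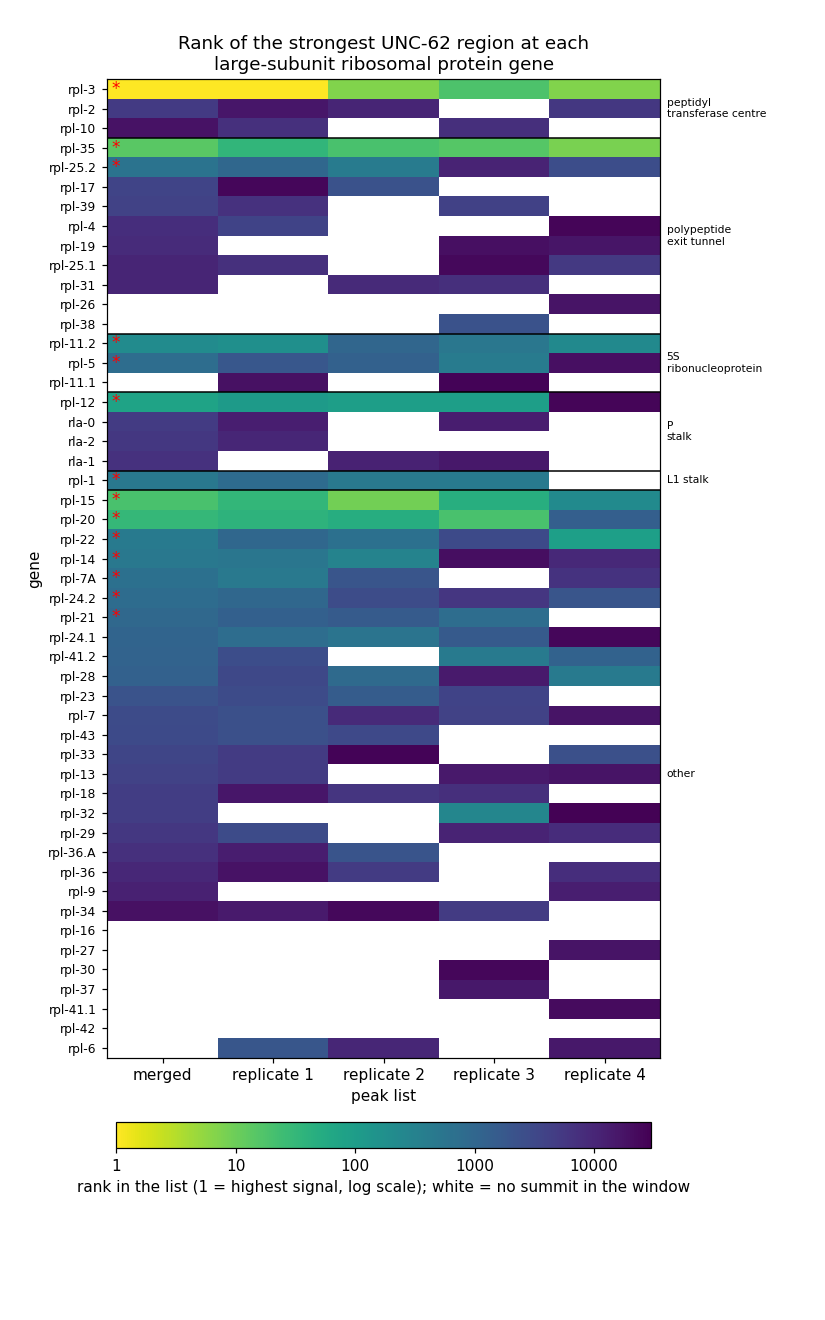
Rank of the strongest region at each of the 50 genes (rows, grouped by place in the subunit) in the merged list and in the 4 replicate lists (columns); colour gives the rank on a log scale, white means no summit in the window, and a red asterisk marks a gene with an optimal peak. The rows of rpl-3, rpl-35 and rpl-15 are bright in all 5 columns, while rpl-16 and rpl-42 are white throughout.

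The strongest regions lay at genes of different parts of the subunit. rpl-3 (WBGene00004414; III, 3867854 to 3869587) encodes uL3, which reaches into the peptidyl transferase centre. Its optimal peak (III, 3867454 to 3867692) had rank 1 and a signal of 243.8, where signal is the authors' value per region and a rank of 1 is the highest signal in a list. The region ranked 1, 7, 18 and 7 in replicates 1 to 4, so it was near the top of every list. The other genes of that centre, rpl-2 (uL2) and rpl-10 (uL16), had no optimal summit; their merged regions ranked 5202 and 18301.

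Of 10 genes for proteins around the exit tunnel, 2 had an optimal summit and 8 a merged one. rpl-35 (uL29, at the rim of the tunnel) had the peak of rank 14, with a signal of 167.4, and ranked 34, 19, 15 and 8 in the replicates. For rpl-25.2 (uL23, which in yeast forms the docking place for the signal recognition particle), the peak ranked 590 with a signal of 48.1. Its ranks of 953 and 418 in replicates 1 and 2, but 10712 and 2603 in replicates 3 and 4, were less even than those of rpl-35. The others of the tunnel were rpl-4, rpl-17, rpl-19, rpl-25.1, rpl-31 and rpl-39, with merged regions ranked from 3651 (rpl-17) to 10421 (rpl-31), and rpl-26 and rpl-38, with none.

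The 5S ribonucleoprotein joins 5S rRNA with uL18 and uL5, and both worm genes for uL5 are members. rpl-11.2 (uL5) had a peak of rank 205 and signal 70.8, and ranked 178, 986, 499 and 229 in replicates 1 to 4. rpl-5 (uL18) had a peak of rank 760 and signal 43.0, with ranks of 1818, 1243, 404 and 19434. Thus the rpl-11.2 region was among the 1037 strongest of every replicate, and that of rpl-5 only of replicate 3.

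The P stalk recruits translation factors. Of its 4 genes that the symbol rule took in, rpl-12 had an optimal summit and the others did not. rpl-12 (uL11, at the base of the stalk) had rank 77 and a signal of 97.6. It ranked 108, 93 and 91 in replicates 1 to 3. In replicate 4 the only listed summit in the window ranked 25868 and lay elsewhere, at a start of the divergent gene lin-54. The stalk protein genes rla-0 (uL10), rla-2 (P2) and rla-1 (P1) had merged regions ranked 4916, 5586 and 6978, far below the optimal peaks. rpl-1 (uL1), the protein of the L1 stalk, past which spent tRNA leaves, had a peak of rank 483 and signal 51.9. It ranked 823, 466 and 450 in replicates 1 to 3 and had no summit in replicate 4.

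Among the 29 genes outside these groups, 7 had an optimal summit and 22 a merged one. rpl-15 (eL15) had rank 19 and a signal of 156.6, with ranks of 33, 9, 46 and 213 in replicates 1 to 4. rpl-20 (eL20) had rank 31 and a signal of 130.9, with ranks of 38, 49, 19 and 1306. Replicate 4 was thus the lowest for both, and for rpl-20 it fell outside the strongest 1037. rpl-22 (eL22) showed the opposite order: its peak of rank 446 and signal 53.4 ranked 88 in replicate 4 and 976, 664 and 2998 in replicates 1 to 3. rpl-14 (eL14), with rank 493 and signal 51.4, ranked 515 and 301 in replicates 1 and 2 but 20755 and 9186 in replicates 3 and 4. rpl-7A (eL8), with rank 675 and signal 45.5, ranked 462, 1967 and 6540 in replicates 1, 2 and 4 and was not listed in replicate 3. These weaker peaks were therefore among the 1037 strongest regions of 1 to 3 replicates.

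The last optimal peaks belonged to rpl-24.2, with rank 789 and a signal of 42.2, and rpl-21 (eL21), with rank 926 and a signal of 39.2. In the replicates, rpl-24.2 ranked 968, 2775, 5861 and 2000, and rpl-21 ranked 1249, 1535 and 764 with no summit in replicate 4. rpl-24.2 has the RefSeq name rsl-24D1; its yeast relative Rlp24 is an assembly factor that eL24 replaces in the maturing subunit. Just outside the optimal list were rpl-24.1 (merged rank 1103, signal 35.8), rpl-41.2 (1149, 35.2) and rpl-28 (1227, 34.2), then rpl-23 (2145, 26.1) and rpl-7 (2879, 22.8). The lowest signal of any optimal peak was 37.3, so rpl-21 and rpl-24.1 lie on either side of a narrow step. In single replicates, rpl-24.1 (eL24) ranked 760 and 564 in replicates 1 and 2, above several of the optimal genes. rpl-28 ranked 866 and 446 in replicates 2 and 4, and rpl-41.2 ranked 436 in replicate 3. rpl-32 was listed at rank 268 in replicate 3 alone among the strongest regions, with no summit in replicates 1 and 2.

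Numbered copies of a gene differed in rank. Against the rank of 205 for rpl-11.2 on X, rpl-11.1 on V, which also encodes a uL5, had no merged summit and ranked 18843 and 26892 in replicates 1 and 3 only. Against the rank of 590 for rpl-25.2 on I, rpl-25.1 on X, the other uL23 gene, had a merged rank of 10215 and ranked 7247, 24088 and 5349 in replicates 1, 3 and 4. rpl-41.2 had the merged rank of 1149 given above, and rpl-41.1, its neighbour on I with the same RefSeq product, had none in its window and a rank of 22264 in replicate 4. A weak merged summit (rank 11701) lay 202 bp downstream of its start, just past the 200 bp edge, so that the absence rests on the window while the difference in rank does not. The window of rpl-41.2 reaches back over rpl-41.1. Both this summit and that of rpl-41.1 in replicate 4 therefore also fall in the rpl-41.2 window. The pair rpl-24.1 and rpl-24.2 stood close together, at merged ranks of 1103 and 789, and share a name but not a RefSeq product. How reads from near-identical copies were placed is not given in the sources used here, so values of the copies are uncertain where their flanks resemble each other.

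Below the optimal list, most members still had a listed region. The merged list, made by the authors from the 4 replicates together, had a summit at 40 of the 50 genes (80%) beside 29.1% of all protein-coding genes. By its label that list holds peaks and background together, so an entry in it need not be a significant peak. The 26 with a merged but no optimal summit ranked from 1103 to 18548. Their −log10 q-values ran from 0.0178 (rpl-34), little evidence of a peak, to 3.42 (rpl-24.1, rpl-41.2 and rpl-28). Those with no merged summit were rpl-6, rpl-11.1, rpl-16, rpl-26, rpl-27, rpl-30, rpl-37, rpl-38, rpl-41.1 and rpl-42. Among listed genes, the median of the best merged rank was 3197 for these genes and 7435.5 for all genes.

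The lowest optimal signal, 37.3, was also that of the merged list at rank 1037, so the optimal peaks are its strongest regions. Counts from these lists are therefore not independent. Since the optimal and merged lists draw on all replicates, each replicate was also scored by its own strongest nuclear regions. The number taken was 1037, that of the optimal peaks. Replicate 1 had such a summit at 13 of the 50 genes (26%) beside 2.49% of all genes, and replicate 2 at 12 (24%) beside 2.54%. Replicate 3 had 11 (22%) beside 2.45%, and replicate 4 had 6 (12%) beside 2.04%. The mean was 21% ± 6.22 (SD, n = 4) beside 2.38% ± 0.228 over all genes. All 4 replicates lay well above their own background, and replicate 4 was the lowest. Replicates 1 and 2 share 1 set of labels (fragments of 150 to 350 bp, a stock centre as source) and replicates 3 and 4 another (microtip sonication, the laboratory as source); the 2 lower values are those of the second set, whose part in the difference was not tested.

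**Figure D2:**
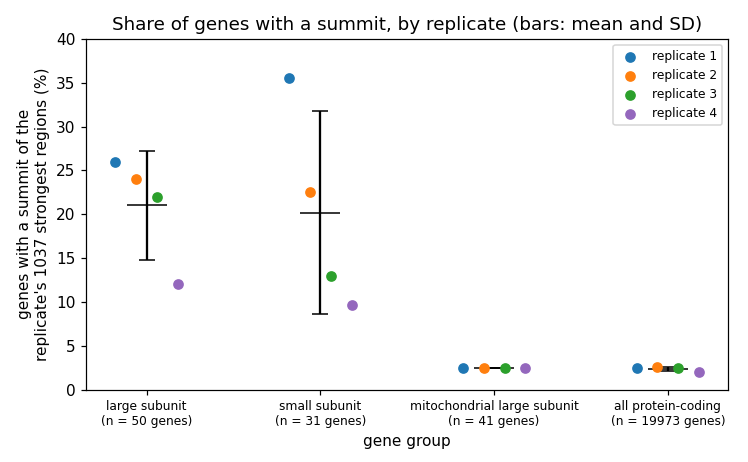
Percentage of genes (vertical axis) with a summit of the replicate's 1037 strongest regions, for 4 groups of genes (horizontal axis); each point is 1 replicate, and bars give the mean and SD over 4 replicates. The large-subunit genes run from 12 to 26% and the mitochondrial large-subunit genes sit at 2.44%, like all genes.

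When every listed region was taken, the contrast was smaller. Replicate 1 had a summit at 37 genes (74%) beside 41.2%, and replicate 2 at 29 (58%) beside 38.6%. Replicate 3 had 34 (68%) beside 38.4%, and replicate 4 had 30 (60%) beside 36.1%. The mean was 65% ± 7.39 (SD, n = 4), so the difference from the background was largest in ratio among the strongest regions. Among the 50 strongest regions alone, 4 of these genes were scored in the merged list and in each of replicates 1 to 3, and 2 in replicate 4.

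**Figure D3:**
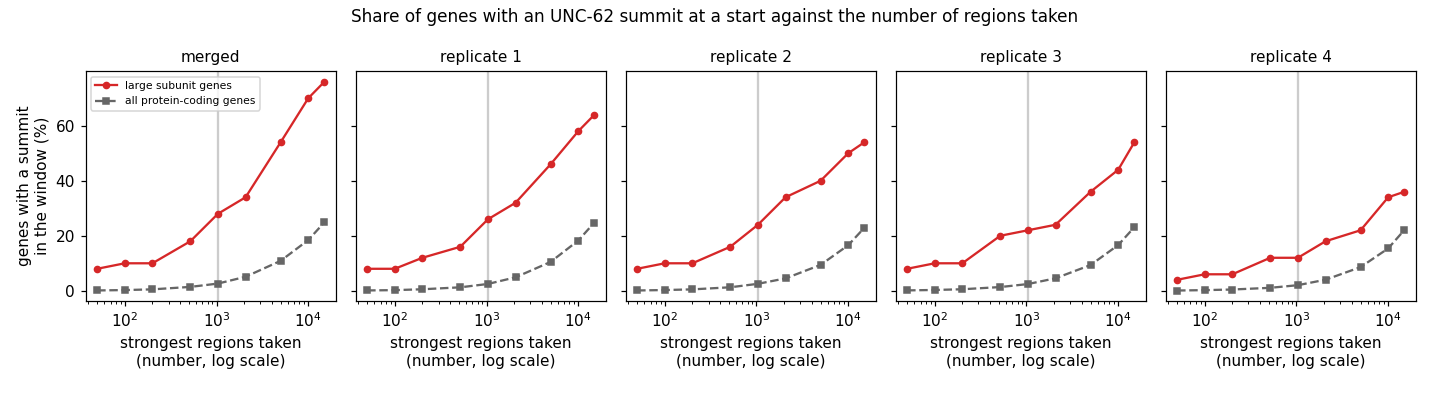
Percentage of genes with a summit (vertical axis) against the number of strongest regions taken (horizontal axis, log scale), in the merged list and the 4 replicates; red circles are the 50 large-subunit genes, grey squares all protein-coding genes, and the grey line marks 1037 regions. The red curve lies above the grey one at every number drawn, from 8% at 50 regions in the merged list upward, and lowest in replicate 4.

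By gene, 4 of the 50 were among the 1037 strongest regions of all 4 replicates (8%) beside 0.345% of all genes. These 4 were rpl-35, rpl-3, rpl-11.2 and rpl-15. A further 4 genes reached this in 3 replicates (rpl-20, rpl-12, rpl-22 and rpl-1), 4 in 2 (rpl-14, rpl-25.2, rpl-24.1 and rpl-28), and 6 in 1. The remaining 32 did so in none. All 14 genes with an optimal summit were among the strongest regions of at least 1 replicate. Only rpl-16 and rpl-42 were listed in no replicate at any rank.

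The nearest kinds of gene were set beside these. Of 31 genes for small-subunit proteins (rps symbols), 10 had an optimal summit (32.3%, interval 16.7 to 51.4%) and 28 a merged one. Scored by each replicate's strongest regions, 35.5%, 22.6%, 12.9% and 9.68% of them had a summit, a mean of 20.2% ± 11.6 (SD, n = 4). The mean differed from that of the large-subunit genes by less than the spread between replicates. No rps gene reached the strongest 1037 in all 4 replicates, which allows a share of up to 9.68% by a floor of 3 counts (3 of 31 genes), not by the exact interval. Of 41 genes for proteins of the mitochondrial large subunit (mrpl symbols), 1 had an optimal summit (2.44%) and 16 a merged one. Their share was 2.44% in every replicate, below each value of the large-subunit genes and near the background.

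By chromosome, the optimal summits fell at 4 of 17 members on I, 2 of 9 on II, 3 of 9 on III, 4 of 8 on IV, none of 5 on V and 1 of 2 on X. These counts only say where the members lie. The share of all genes on each chromosome is not set beside them, so no difference between chromosomes is read from them. The members' median optimal signal was 52.7 and that of all optimal peaks 50.5. Members were thus found from the top to the low end of the list. Its 50 strongest peaks held 4 of them (8%, beside 0.125% of all protein-coding genes). Its 518 strongest held 9 (18%, beside 1.42%). Peaks narrower than the usual 356 bp belonged to the 4 strongest members, rpl-20, rpl-3, rpl-15 and rpl-35 (157 to 239 bp). Of all optimal peaks, of any strength, 4.82% were narrower than 356 bp.

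Summits lay upstream of the annotated transcript starts. Where transcription begins was not measured. The median distance from the nearest own start was 289.5 bp upstream, with a range from 454 bp (rpl-5) to 25 bp (rpl-12), and the median over the 525 genes of any kind with an optimal summit was 290.0 bp. In the band from 200 to 500 bp upstream lay 10 of 14 members (71.4%) beside 39.2% of the 525 genes. This band was not among the planned measures and surrounds the members' own median. The spread of the 525 genes was not measured, so the shares are a description only. For the 26 genes with a merged summit only, the median was 259.5 bp upstream, and 3 lay downstream of the start.

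The summits of the 3 strongest members fell at nearly the same place in every replicate. At rpl-3 they lay 282, 281, 297 and 284 bp upstream in replicates 1 to 4. At rpl-15 they lay 343, 346, 357 and 348 bp upstream (SD 6.03 bp, the smallest among the 14), and at rpl-35 453, 444, 456 and 416 bp. At rpl-20 and rpl-12, replicate 4 stood apart from the others. The rpl-20 summits lay 288, 288 and 296 bp upstream in replicates 1 to 3 and 194 bp in replicate 4 (SD 48.5 bp). Those of rpl-12 lay 25 and 30 bp upstream in replicates 1 and 2, and 6 bp downstream in replicate 3. In replicate 4 the only listed summit was 393 bp upstream, at a start of the divergent gene lin-54. The SD of 189 bp, the largest, thus mixes different places. The median SD over the 14 genes was 24.6 bp, well under the usual peak width of 356 bp.

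**Figure D4:**
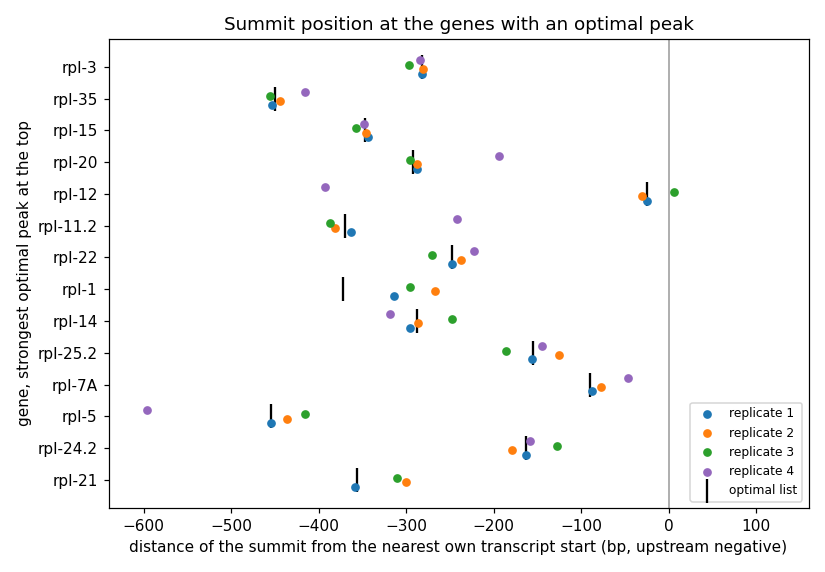
Distance of the summit from the nearest own transcript start (horizontal axis, bp, upstream negative) for the 14 genes with an optimal peak (rows, strongest at the top); coloured points are replicates 1 to 4 and black ticks the optimal list. Points of rpl-3 and rpl-15 nearly coincide, and the replicate 4 points of rpl-20, rpl-12, rpl-11.2 and rpl-5 stand apart.

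Several of these summits lay between divergent genes. At 9 of the 14, another protein-coding gene on the opposite strand started within 1000 bp of the summit, and at 5 of these the other start was nearer. The nearer start was that of Y17G9B.5 at rpl-20 (170 bp against 292 bp), of ify-1 at rpl-22 (190 against 247 bp), of Y71F9AL.9 at rpl-1 (252 against 372 bp), of col-38 at rpl-5 (385 against 454 bp) and of C14B9.10 at rpl-21 (269 against 356 bp). The ify-1 gene encodes the worm securin and col-38 a cuticle collagen. At rpl-15, rpl-12, rpl-25.2 and rpl-7A the own start was nearer than that of K11H12.8 (467 bp), lin-54 (368 bp), C34B7.1 (648 bp) and set-21 (164 bp). A list of summits cannot say which of a divergent pair a region belongs to. At rpl-3, rpl-35, rpl-11.2, rpl-14 and rpl-24.2 no other protein-coding start lay within 1000 bp.

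Known motif letters were searched within 50 bp of each summit on both strands. The MEIS-type core TGACAG was found at 1 of the 14 summits, that of rpl-1, beside 10.3% of the 1013 optimal summits outside cytosolic ribosomal protein genes and 3.20% of windows of the same 101 bp placed upstream of every protein-coding gene. The PBX-Hox letters TGATTGAT were at none, beside 3.65% and 0.566%, and the looser TGATNNAT, which includes them, at none, beside 13.4% and 7.92%. GAGAGAGA was at none of the 14, beside 9.77% and 0.881%, and TAATTA, a homeodomain core, at none, beside 1.28% and 5.86%. The E-box CACGTG was at 1, rpl-14, beside 4.34% and 1.51%. With 14 windows these counts are small, and a missing match says only that those letters are not in the window.

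The strings shown in the sequences above were commoner at these summits than at others, as their choice fixed. CGAGTGT lay within 50 bp of 6 summits (rpl-3, rpl-15, rpl-20, rpl-11.2, rpl-22 and rpl-24.2), beside 1.68% of the other optimal summits and 0.556% of upstream windows. ACCGTAG lay at 5 (rpl-3, rpl-15, rpl-11.2, rpl-22 and rpl-14), beside 0.691% and 0.516%. At the 10 optimal summits of rps genes they were found at 0 and 1. The base composition of the windows also differed: median GC was 50.5% at these 14 summits, 47.5% at all optimal summits and 33.7% in upstream windows, and its part in the string counts was not tested.

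**Figure D5:**
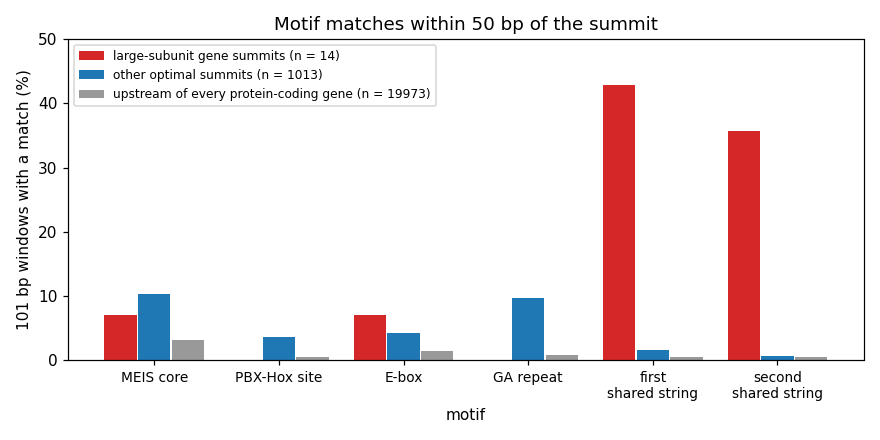
Percentage of 101 bp windows with a match on either strand (vertical axis, from 0) for 4 motif names and the pair of strings picked from the windows (horizontal axis); red bars are the 14 large-subunit summits, blue the 1013 other optimal summits and grey windows upstream of every protein-coding gene. The MEIS core is at 7.14% in red and 10.3% in blue, and the first and second shared strings are at 42.9 and 35.7% in red, for which they were chosen.

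The order of the strings differed between genes. In rpl-11.2 and rpl-22 CGAGTGT is followed after 1 base by ACCGTAG on the same strand, starting at positions 66 and 74 of the printed window in rpl-11.2 and 68 and 76 in rpl-22. In rpl-3 and rpl-15 the second string lies on the opposite strand and further off, starting at 45 and 27 while CGAGTGT starts at 84 and 56. The arrangement with 1 base between occurs 10 times on the 6 nuclear chromosomes, and 13 protein-coding genes have it in their window of 1201 bp. Of these, 5 are members (rpl-6, rpl-11.2, rpl-19, rpl-22 and rpl-34), 6 had an optimal summit and 10 a merged one. The arrangement was first seen at the summits of rpl-11.2 and rpl-22, and those genes and ify-1, which shares the rpl-22 summit, are 3 of the 6. Having it did not go with a strong region at every member: rpl-6 had no merged summit, and rpl-19 and rpl-34 had merged ranks of 8364 and 18548.

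Across the whole window rather than the summit, both strings were present in 5 of the 14 genes with an optimal summit and in 4 of the 36 without (rpl-6, rpl-19, rpl-29 and rpl-34). None of the 31 rps or 41 mrpl genes held both, beside 0.671% of all protein-coding genes. Taken alone, CGAGTGT was in 8 of the 14, in 6 of the 36 and in 7.31% of all protein-coding genes. Among rps genes it was in 1 of 10 with an optimal summit and in 7 of 21 without (33.3%). ACCGTAG was in 7 of the 14, in 9 of the 36 and in 6.39% of all genes. In rps genes it was in 1 of 10 and 3 of 21. Some divergent neighbours share the windows from which the strings were picked, so other genes were counted only where their window overlapped none of a cytosolic ribosomal protein gene. Of these, 8 of 121 with both strings had an optimal summit (6.61%), and 388 of 17264 with neither (2.25%). This contrast rests on 8 genes, and the part of GC and of the number of transcript starts per gene in it was not tested. These are descriptions of strings found in these data.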

How the data were processed

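UNC-62 ChIP-seq of L3 larvae was read from 6 deposited peak lists on ce11: 4 replicates, the merged list and the optimal list. The authors deposited a signal value, a −log10 q-value and a summit offset per region; all optimal peaks share 1 −log10 q-value, 3.42. Per the notes deposited with the files, the merged list comes from the 4 alignments and a control, and the optimal list from the merged and replicate lists. For the aligner and the caller, names were not given in the sources used here. Control reads were not analysed here. The lists hold no counts, so depth is unknown, and signal scales differ between lists, so replicates were compared by rank without mitochondrial regions (30 each in replicates 3 and 4).

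Genes came from Ensembl release 115 and products from RefSeq, matched by gene ID for 50 of 50 members. Intervals are exact (Clopper-Pearson, 95%). Members, gene lists and motifs were chosen with earlier results of these data known, and 2 strings after the windows were read, so no test was made. Replicates are biological per the labels. Named were all members with an optimal summit, numbered copies, the 5 strongest members without one, members with no merged summit and other genes starting within 1000 bp of a member's optimal summit. Scoring was tested on simulated summits. Alternatives changed the window, start, threshold, replicate support and motif window. Python 3.11.15, pandas 2.3.3, numpy 2.4.6, scipy 1.17.1 and matplotlib 3.10.9 were used.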

Additional observations from a re-analysis of the deposited data

Results flagged for a closer look

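Of 26 sets of 4 replicate values, 4 had 1 replicate far from the other three by Dixon's 95% criterion, which chance meets in about 1 in 20 sets; all were values of replicate 4. The rpl-20 summit lay at −194 bp in replicate 4, against −288 to −296 bp in the others. In the rpl-12 window, the only replicate 4 summit lay at −393 bp, against −30 to 6 bp, at a start of lin-54. Its rank of 25868, beside 91 to 108, is thus that of another place. Replicate 4 lists no summit near those of the others. The rpl-11.2 summit lay at −242 bp, against −363 to −387 bp, while its rank of 229 was within the range of the others.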

How the results depend on the processing

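The count of 14 members with an optimal summit stayed at 14 with 500 or 2000 bp upstream, 500 bp downstream, the 5′-most start alone, or 1 bp of the peak in the window. It was 9 with the 518 strongest optimal peaks alone and 9 when each summit went to the nearest start alone. It was 4 when the peak had to be overlapped by the strongest regions of all 4 replicates, and 4 to 7 when 1 replicate was left out of that demand (4 without replicate 1 or 2, 5 without replicate 3 and 7 without replicate 4). These settings demand more by construction. Members supported in every replicate numbered 4, and 4 to 7 when 1 replicate was left out, with 7 without replicate 4; the cause was not tested. The mean share of 21% ran from 16% (518 regions) to 27% (2074 regions), and from 19.3 to 24% with 1 replicate left out. The merged count of 40 ran from 34 to 43, with 41 at 500 bp downstream, a setting chosen after seeing the data. The median distance did not change. With 25 bp on each side, ACCGTAG was at 2 summits in place of 5: at rpl-11.2 and rpl-22 it starts at positions 74 and 76 of the longer window and runs past the edge of the shorter one. Depth and its limit are unknown. No paired analysis was possible because there is 1 group.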
